A study of Mus musculus with 6 samples.

Results

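Genomic imprinting was examined through 48 mouse genes for which expression from a single parental allele is known, assigned to 21 loci. The genes were chosen by symbol from general knowledge of imprinted loci, with earlier results of these data known. All 48 matched 1 row each among the 52636 genes of the count table. RNA-seq had been carried out on embryoid bodies (EBs), aggregates in which embryonic stem cells (ESCs) differentiate, to ask how loss of Tnfaip2 affects differentiation. The WT group held 3 replicates of EBs from the parental E14 ESC line. The Tnfaip2-/- group held 3 replicates from a single E14 clone, made with CRISPR-Cas9 and carrying a premature stop in exon 2. EBs of both genotypes formed for 3 days in hanging drops and were collected 3 days after plating for differentiation without leukemia inhibitory factor. Since each genotype was 1 line, p-values measured the spread between cultures and not between independent clones, and genotype and clone cannot be told apart. Total counts ranged from 22489903 to 23804489 in WT EBs and from 21765931 to 22480962 in Tnfaip2-/- EBs, so that 3 counts corresponded to between 0.126 and 0.138 CPM (counts scaled to the size of the library).

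Tnfaip2 itself (ENSMUSG00000021281) had 7, 4, and 7 counts in WT EBs and 0, 2, and 2 in Tnfaip2-/- EBs. The ratio of the summed counts, Tnfaip2-/- over WT, was 0.228 with an exact 95% interval from 0.0561 to 0.692 that covers counting error only. The gene was too low for the test across genes. A stop codon need not remove the RNA, so these counts check the labels only weakly.

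Imprinted genes carry marks, mainly DNA methylation at imprinting control regions, that were set differently in the egg and the sperm. Through these marks, and through long noncoding RNAs and insulators that read them, neighbouring genes are expressed from the maternal or the paternal chromosome. Many imprinted genes act on fetal growth and placental function, and imprints of cultured ESCs are known to be lost in some lines. Counts per gene do not separate the parental alleles, so allelic expression was not measured here.

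Promoter sequence was available in the RefSeq table (GRCm38.p6) for 38 of the 48 genes, in 56 windows of 250 bases before an annotated start. The hexamer TGCCGC, which the imprint-maintaining protein ZFP57 binds when its CpG is methylated, was searched on both strands. It was present in 17.9% of the 56 windows, some of which overlap, and in 8.68% of the 32851 windows of all genes. The median number of CpG dinucleotides per window was 11.5 in the imprinted genes and 6 in all genes. Among genes described below, the hexamer was in windows of Mest, Meg3, Calcr, Zdbf2, Copg2, Zim1, Mcts2, Nap1l5, and Plagl1. A match describes the letters of the window and is not evidence of binding, and methylation was not measured.

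Windows are shown for Mest, the gene that fell most, for Meg3 and Dlk1, which lie in a locus where all 5 tested genes of the list fell, and for Ascl2, which rose. Each is written 5′ to 3′ on the gene's strand, in GRCm38.p6, with the hexamer or its reverse complement in capitals. Mest has 3 windows, of which the one shown, chr6:30737800-30738049 on the forward strand, has 14 CpG and 2 hexamers. A second Mest window, which overlaps it almost fully, has the same content, and the other has 7 CpG and no hexamer. Meg3 has 2 windows, of which the one shown, chr12:109540746-109540995 on the forward strand, has 10 CpG and 1 hexamer, and the other has 0 CpG and no hexamer. The Dlk1 window, chr12:109452573-109452822 on the forward strand, has 8 CpG, and the Ascl2 window, chr7:142969265-142969514 on the reverse strand, has 19 CpG, both without the hexamer. The 4 windows shown, chosen with their content known, do not overlap an exon annotated in GENCODE, whereas the other windows of Mest and Meg3 do.

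Mest: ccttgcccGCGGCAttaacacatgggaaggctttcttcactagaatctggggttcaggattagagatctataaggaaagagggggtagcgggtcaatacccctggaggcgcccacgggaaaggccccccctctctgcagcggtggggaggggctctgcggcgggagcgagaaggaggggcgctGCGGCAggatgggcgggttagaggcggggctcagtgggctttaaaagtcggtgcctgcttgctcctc

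Meg3: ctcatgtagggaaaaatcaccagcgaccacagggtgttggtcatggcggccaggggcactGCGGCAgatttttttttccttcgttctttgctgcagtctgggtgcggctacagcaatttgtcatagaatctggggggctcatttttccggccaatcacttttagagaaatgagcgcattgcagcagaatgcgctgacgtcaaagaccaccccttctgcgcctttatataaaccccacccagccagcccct

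Dlk1: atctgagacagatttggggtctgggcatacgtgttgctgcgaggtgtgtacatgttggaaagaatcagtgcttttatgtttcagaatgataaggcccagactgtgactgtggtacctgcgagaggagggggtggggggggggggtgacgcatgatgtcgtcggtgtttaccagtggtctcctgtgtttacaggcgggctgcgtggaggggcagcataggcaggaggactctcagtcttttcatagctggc

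Ascl2: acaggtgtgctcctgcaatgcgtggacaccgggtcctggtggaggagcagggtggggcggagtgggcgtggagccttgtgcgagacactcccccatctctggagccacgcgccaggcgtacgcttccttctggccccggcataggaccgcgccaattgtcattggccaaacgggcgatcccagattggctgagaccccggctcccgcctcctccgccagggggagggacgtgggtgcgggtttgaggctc

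Of the 48 genes, 40 had enough counts to be tested, and 32 of these (80.0%) changed between genotypes at an adjusted p below 0.05 by edgeR's quasi-likelihood test. Among all 17849 genes tested, 67.7% passed the same threshold, so a change as such was common in these EBs. Of the imprinted genes, 14 (35.0%) were higher and 18 (45.0%) lower in Tnfaip2-/- EBs, beside 34.0% higher and 33.7% lower among all genes. Changes of 2-fold or more were found in 10 of 40 (25%), beside 12% of all genes tested. These were Mest, Peg10, Asb4, Dlk1, Magel2, Igf2, and Meg3, which fell, and H19, Ascl2, and Slc22a18, which rose. Meg3 and Slc22a18 passed 2-fold narrowly and missed it under some settings. Examples are -0.976 for Meg3 with total counts only and 0.859 for Slc22a18 without Tnfaip2-/- replicate 2. Among all genes, 805 fell and 1331 rose by 2-fold or more. In 32 of the 40 genes (80.0%) the WT and Tnfaip2-/- samples did not overlap, compared with 69.4% of all genes tested.

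The median log2 fold change was -0.04 over the imprinted genes tested and 0.00 over all genes tested. The median size of the change, regardless of sign, was 0.48 and 0.30, respectively. The sign of the first median depended on which genes were counted. It was 0.14 over the 20 tested genes that share no exon base with another gene. Of these, 11 were higher (55.0%) and 7 lower (35.0%). That subset was chosen after the data had been seen. Leaving out the Dlk1-Dio3 locus turned the sign as well. Of the 35 genes then tested, 14 were higher (40.0%) and 13 lower (37.1%), with a median of 0.05. The median over the imprinted genes was -0.07 without WT replicate 1, -0.03 without Tnfaip2-/- replicate 2, and -0.15 when genes below a minimum count of 50 were left out. Among the 18 tested genes expressed from the paternal allele, 6 were higher and 9 lower, with a median of -0.26. Among the 12 expressed from the maternal allele, 5 were higher and 6 lower, with a median of -0.09, and the difference between the alleles was not tested.

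**Figure D1:**
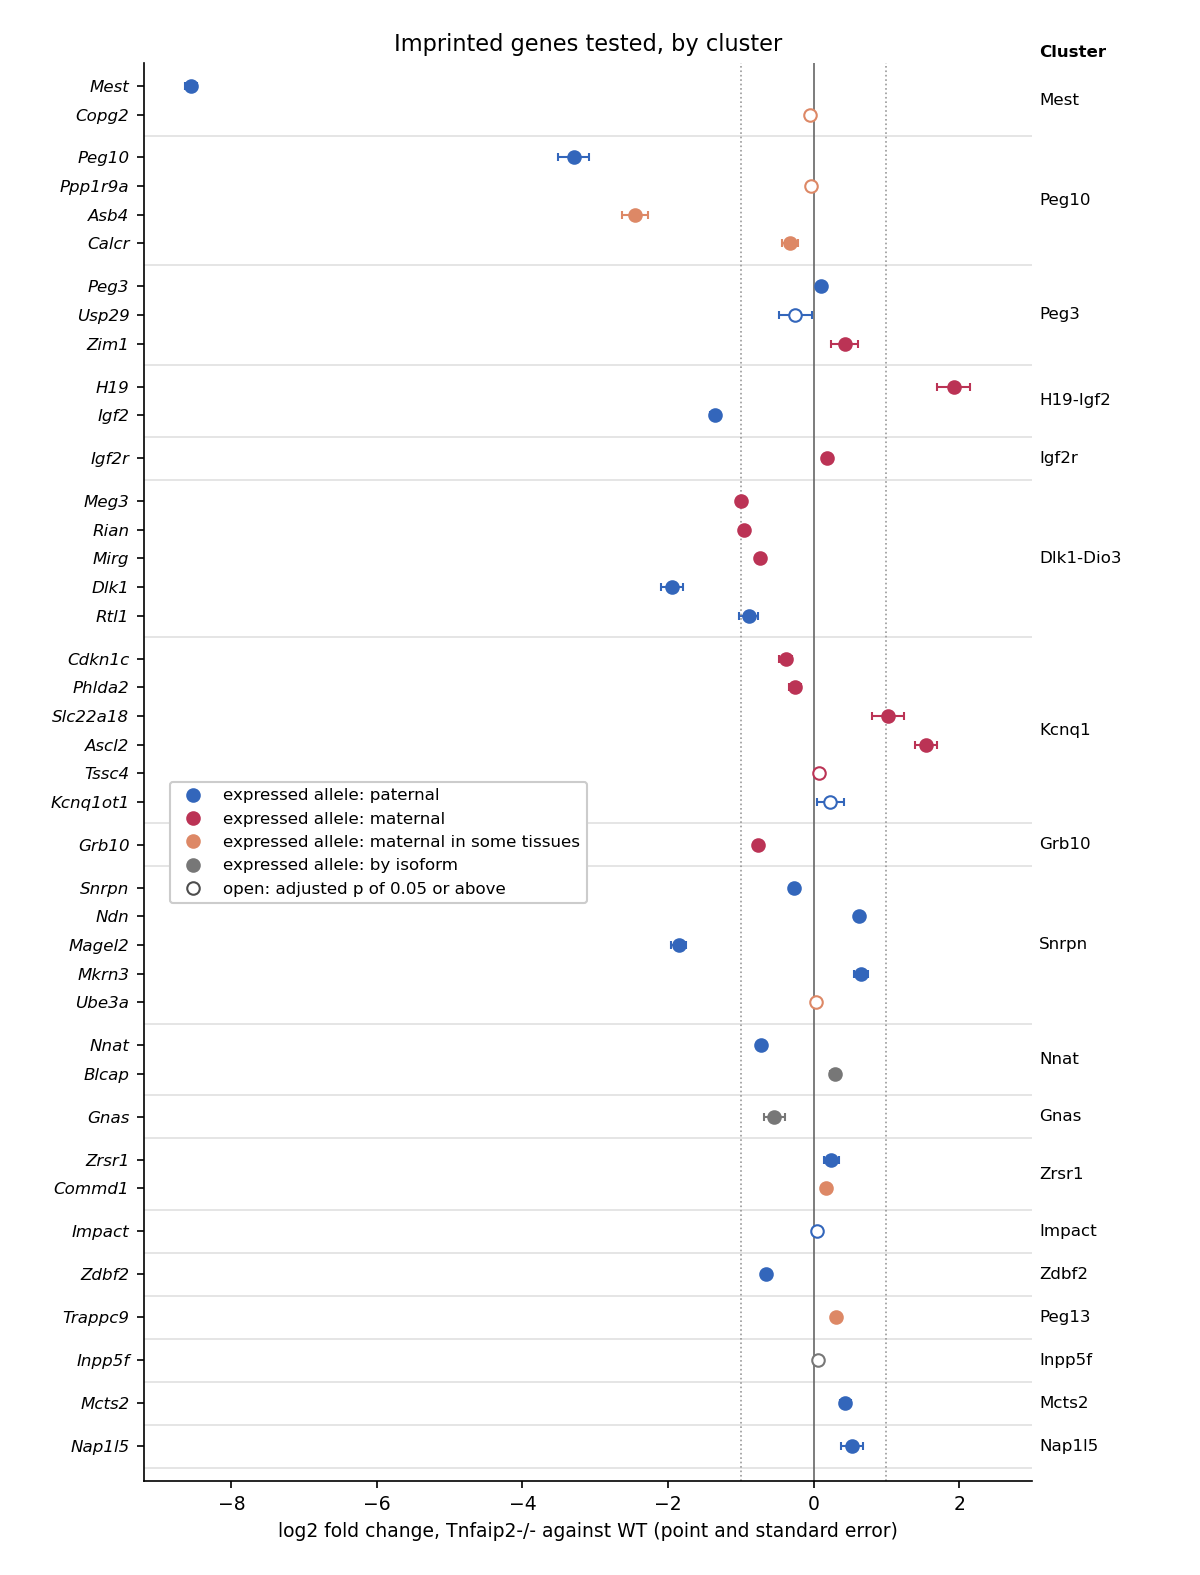
The log2 fold change of the 40 imprinted genes tested (x axis, Tnfaip2-/- against WT, 3 samples each) is plotted by locus, with standard errors derived from the test statistic, coloured by the allele known to be expressed, and open where the adjusted p was 0.05 or above. These errors are too small for genes with few counts in a group, such as Mest and Peg10. Mest lies at -8.55, the other genes lie between -3.30 and 1.92, and dotted lines mark a 2-fold change.

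Marker genes of several cell types also differed between the genotypes. All 9 tested markers of primitive streak and mesoderm were lower in Tnfaip2-/- EBs, led by T, Fgf8, and Evx1 with log2 fold changes of -7.95, -4.69, and -4.44. The summed level of the 10 listed streak markers was 101, 101, and 99.5 CPM in WT EBs and 22.9, 19.9, and 23.9 CPM in Tnfaip2-/- EBs, with T the most abundant in WT EBs and Eomes in Tnfaip2-/- EBs. All 5 tested neural ectoderm markers were lower as well, led by Zic1, Sox1, and Pax3 (-6.12, -1.61, and -1.43). The 8 listed neural markers summed to 110, 109, and 103 CPM in WT EBs and 47.7, 45.9, and 47.2 CPM in Tnfaip2-/- EBs, with Sox1 the most abundant.

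Pluripotency markers, which define the ESCs of origin, were high in both genotypes. Their summed level over 10 genes was 3651, 3600, and 3673 CPM in WT EBs and 3036, 3040, and 3017 CPM in Tnfaip2-/- EBs, with Dppa5a the most abundant. Zfp42, Nanog, and Sox2 were higher (0.90, 0.26, and 0.23), and 7 others were lower, led by Klf4, Pou5f1, and Dppa5a (-1.49, -0.86, and -0.69). The 12 markers of primitive and visceral endoderm summed to 299, 297, and 300 CPM in WT EBs and 397, 392, and 393 CPM in Tnfaip2-/- EBs, with Sparc the most abundant. Of these markers, Lama1, Sparc, and Sox17 were higher (1.39, 0.59, and 0.45) and 7 were lower, led by Afp, Apoa1, and Ttr (-4.17, -2.59, and -1.95).

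Markers of extraembryonic trophoblast, a tissue in which many imprinted genes act, were low in both genotypes. Their sum over 8 genes was 3.53, 2.77, and 2.64 CPM in WT EBs and 3.17, 2.97, and 4.10 CPM in Tnfaip2-/- EBs, with Cdx2 the most abundant in WT EBs and Krt7 in Tnfaip2-/- EBs, and Tpbpa and Prl3d1 had 0 counts in all samples. Hand1 and Krt7 were higher (1.75 and 1.26), and Cdx2 was lower (-4.96). The 8 fibroblast markers summed to 18.3, 18.5, and 17.3 CPM in WT EBs and 18, 16.5, and 17 CPM in Tnfaip2-/- EBs, with Fbn1 the most abundant and Lum at the floor in all samples. Of 6 fibroblast markers tested, Pdgfrb was higher (0.36), and Col3a1 and Col1a2 were lower (-4.22 and -1.50). The part of these cell types in the imprinted gene results was not tested. In bulk RNA, fewer cells of a type and less RNA per cell cannot be told apart.

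**Figure D2:**
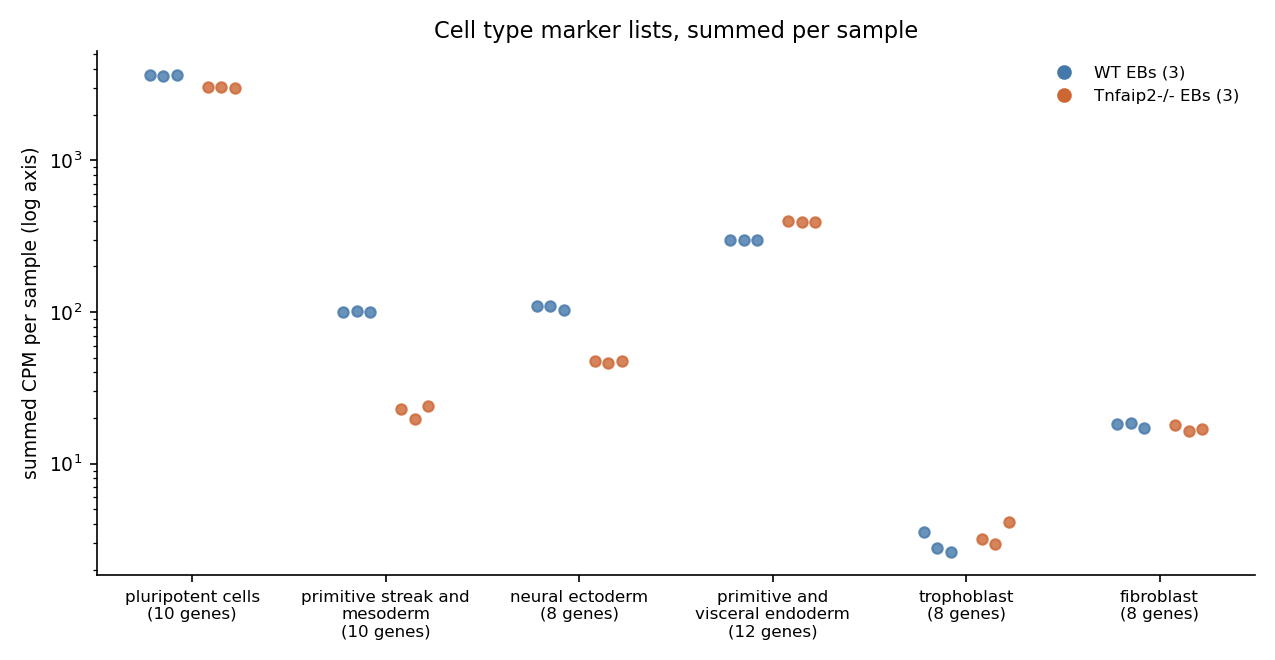
Summed CPM of each marker list (y axis, log scale) is shown for the 3 WT and 3 Tnfaip2-/- EB samples, one point per sample. For pluripotency, streak, and neural markers all Tnfaip2-/- points lie below all WT points, and for endoderm markers they lie above.

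Mest (ENSMUSG00000051855), which encodes a hydrolase-fold protein and is expressed from the paternal allele, was nearly lost in Tnfaip2-/- EBs. The gene lies at chr6:30723547-30748465 on the forward strand of GRCm38. It had 3091, 3052, and 3243 counts in WT EBs and 7, 9, and 8 in Tnfaip2-/- EBs. All 3 WT samples were high and all 3 Tnfaip2-/- samples were near the floor, with no value between the groups. The mean fell from 137 ± 0.976 to 0.360 ± 0.0514 CPM (means with SD of 3 samples), which on the log2 scale was -8.55 (edgeR adjusted p = 4.79e-50), the lowest of all 17849 genes tested. Summed counts gave a ratio, Tnfaip2-/- over WT, of 0.00262, with an exact 95% interval from 0.00168 to 0.00391 (counting error only). Per kilobase of exon, the WT level of Mest ranked 3 of the 40 tested genes (34.7 RPKM), and its Tnfaip2-/- level ranked 37 (0.0912 RPKM).

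Copg2, which encodes a coat protein of Golgi vesicles and is maternally expressed in some tissues, overlaps the 3′ end of Mest on the opposite strand. It had 2078, 2179, and 2303 counts in WT EBs and 2147, 2033, and 1997 in Tnfaip2-/- EBs. The groups overlapped, and the log2 fold change of -0.05 did not pass the test, although it did without WT replicate 1 (-0.09). The library kit does not record strand, and the overlap comprises 23.1% of the exon bases of Mest and 17.8% of those of Copg2. Of the 10 nearest tested genes around the Mest locus, 3 were higher and 4 lower, in a range from -0.57 to 0.62 on the log2 scale and with the median at -0.01.

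In the Peg10 locus, also on chromosome 6, Peg10, Asb4, and Calcr were lower, whereas Ppp1r9a was not called and Sgce was barely detected. Peg10, a retrotransposon-derived gene expressed from the paternal allele and essential for the placenta, had 107, 97, and 102 counts in WT EBs and 14, 8, and 8 counts in Tnfaip2-/- EBs. Each Tnfaip2-/- sample was far below each WT sample. The mean fell from 4.46 ± 0.222 to 0.447 ± 0.146 CPM (means with SD of 3 samples), which on the log2 scale was -3.30 (edgeR adjusted p = 1.03e-18). Summed counts gave a ratio of 0.101, with an exact 95% interval from 0.0667 to 0.147 (counting error only). Sgce, which encodes a sarcoglycan and shares its promoter region with Peg10 on the opposite strand, had 7, 6, and 8 counts in WT EBs and 2, 7, and 2 in Tnfaip2-/- EBs. The summed ratio for Sgce was 0.538 with an exact 95% interval from 0.234 to 1.17 that covers counting error only. Sgce was too low for the test across genes, and was not called (-0.89) when every gene with at least 1 count was tested.

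Asb4, which encodes a subunit of a ubiquitin ligase, had 123, 114, and 136 counts in WT EBs and 23, 13, and 30 in Tnfaip2-/- EBs. The groups were well separated, although the Tnfaip2-/- samples varied among themselves. The mean fell from 5.44 ± 0.349 to 0.986 ± 0.380 CPM (means with SD of 3 samples), which on the log2 scale was -2.45 (edgeR adjusted p = 5.74e-17). Summed counts gave a ratio of 0.182, with an exact 95% interval from 0.138 to 0.236 (counting error only). Calcr, the calcitonin receptor, fell from 6.53 ± 0.494 to 5.20 ± 0.530 CPM (-0.32), a call that was lost with DESeq2. Ppp1r9a, which encodes an actin-binding scaffold of synapses, was the most abundant of the listed genes of the locus by CPM. Its counts were 842, 838, and 902 in WT EBs and 838, 771, and 847 in Tnfaip2-/- EBs, overlapping between the groups, with a log2 fold change of -0.03 that did not pass the test.

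Genes that lie between those listed in this locus moved in both directions, and 3 of them, Casd1, Pon2, and Pon3, also belong to a list of further imprinted genes described below. Gng11 and Pon3 were higher (1.10 and 0.58), Col1a2 and Pon2 were lower (-1.50 and -0.18), and Casd1 and Bet1 were not called. Pdk4, the nearest flanking gene beyond Asb4 at 50.3 kb, was higher (1.17). Of the 7 flanking genes tested, 3 were higher and 3 lower, and the median was -0.04.

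**Figure D3:**
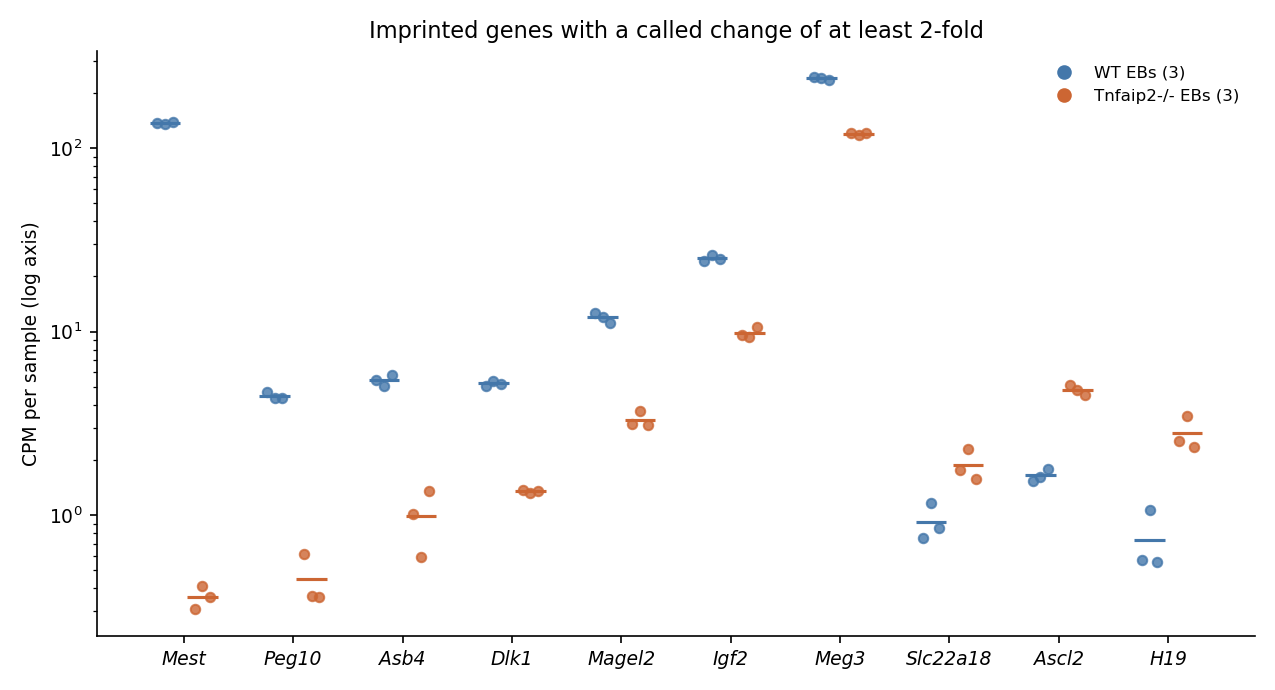
CPM per sample (y axis, log scale) is shown for the 10 imprinted genes with a called change of at least 2-fold, with 3 points and a bar at the mean for each genotype. WT and Tnfaip2-/- samples are separated in each gene, and Mest shows the largest gap, from 137 to 0.360 CPM.

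In the Dlk1-Dio3 locus on chromosome 12, all 5 genes tested were lower in Tnfaip2-/- EBs, whichever allele they are known to be expressed from. Dlk1, a paternally expressed membrane protein related to Notch ligands, had 115, 121, and 122 counts in WT EBs and 31, 29, and 30 counts in Tnfaip2-/- EBs. It fell from 5.22 ± 0.167 to 1.35 ± 0.0207 CPM (means with SD of 3 samples), which on the log2 scale was -1.95 (edgeR adjusted p = 1.08e-15). Summed counts gave a ratio of 0.258, with an exact 95% interval from 0.202 to 0.326 (counting error only). Meg3, the maternally expressed noncoding RNA at the head of the cluster, had 5513, 5433, and 5509 counts in WT EBs and 2737, 2582, and 2679 counts in Tnfaip2-/- EBs. It fell from 240 ± 4.90 to 120 ± 1.59 CPM (means with SD of 3 samples), which on the log2 scale was -1.004 (standard error 0.0284, edgeR adjusted p = 3.84e-32). Replicates of either genotype lay close together in both genes, and the groups did not overlap. Meg3 shares 8.3% of its exon bases with other genes, in part on the opposite strand, so its counts are uncertain to that extent.

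Rian, a maternal noncoding RNA that hosts small nucleolar RNAs, was the most abundant of the listed genes of the locus by CPM. It had 6413, 6429, and 6546 counts in WT EBs and 3339, 3103, and 3300 in Tnfaip2-/- EBs. It fell from 283 ± 4.25 to 146 ± 3.70 CPM (means with SD of 3 samples), which on the log2 scale was -0.96 (standard error 0.0276, edgeR adjusted p = 8.68e-32). Mirg, a maternal microRNA host, fell from 46.2 ± 1.32 to 27.7 ± 1.99 CPM (-0.74). Rtl1, a paternal retrotransposon-like gene of the placenta, fell from 5.23 ± 0.434 to 2.81 ± 0.201 CPM (-0.89). Rtl1 shares 8.4% of its exon bases with annotated microRNAs, most of them on the opposite strand. Without strand, its counts may include RNA of the opposite strand and are uncertain. The fall of paternal genes in this locus thus rests mainly on Dlk1, which shares no exon base with another gene.

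Ratios to Meg3 within a sample do not depend on normalization between samples. The ratio of Rian to Meg3 in CPM was 1.16, 1.18, and 1.19 in WT EBs and 1.22, 1.20, and 1.23 in Tnfaip2-/- EBs. The ratio of Dlk1 to Meg3 was 0.0209, 0.0223, and 0.0221 in WT EBs and 0.0113, 0.0112, and 0.0112 in Tnfaip2-/- EBs. The mean ratio of Mirg to Meg3 went from 0.192 to 0.231, without overlap, and that of Rtl1 to Meg3 from 0.0218 to 0.0235, with overlap. Relative to Meg3, Dlk1 thus fell further, and Mirg and, by a small margin, Rian fell less. Dio3, a paternal deiodinase at the far end, had 5, 3, and 5 counts in WT EBs and 4, 5, and 5 in Tnfaip2-/- EBs, too few for the test.

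Genes around the locus were also lower more often than higher. Of the 10 flanking genes, 7 were lower and 1 was higher, with a median log2 fold change of -0.22, compared with -0.96 for the imprinted genes and -0.19 for the 703 genes tested on chromosome 12. Gm19605 and Slc25a29, both low in level, fell further than Meg3 (-1.77 and -1.62). Inside the locus, the noncoding gene Gm26945 and the small nucleolar RNA gene DQ267102 both lie within Rian, on the same strand. Gm26945 fell from 0.925 to 0.150 CPM (-2.57), and DQ267102 was lower by -1.19 on the log2 scale, both with few counts. The pseudogene Gm3379 was not called (0.03), but reads of a processed pseudogene may come from its parent gene. The edited gene, Tnfaip2, begins 1161.4 kb beyond the end of the locus on the same chromosome, at 111442469.

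**Figure D4:**
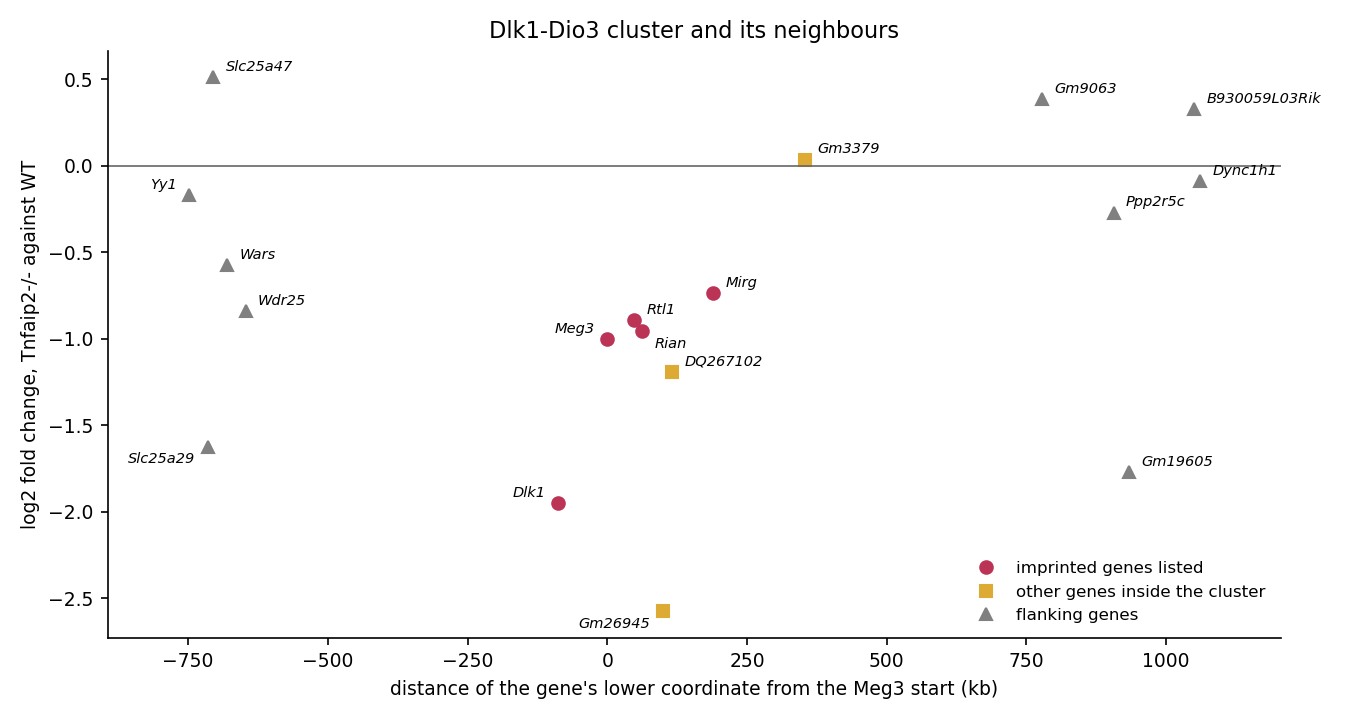
The log2 fold change (y axis, Tnfaip2-/- against WT) is plotted against distance from the Meg3 start in kb for the 5 tested imprinted genes of the Dlk1-Dio3 locus, 3 other genes inside it, and 10 flanking genes. The imprinted genes lie between -1.95 and -0.74, and the flanking genes range from -1.77 to 0.51.

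H19 and Igf2 on chromosome 7, which compete for shared enhancers through a methylation-sensitive insulator, changed in opposite directions. H19, a maternal noncoding RNA, had 13, 24, and 13 counts in WT EBs and 58, 76, and 52 counts in Tnfaip2-/- EBs. Each Tnfaip2-/- sample exceeded each WT sample, at low levels in both. H19 rose from 0.733 ± 0.294 to 2.79 ± 0.599 CPM (means with SD of 3 samples), which on the log2 scale was 1.92 (edgeR adjusted p = 3.11e-10). Summed counts gave a ratio of 3.82, with an exact 95% interval from 2.78 to 5.33 (counting error only). Igf2, the paternal growth factor gene, had 551, 583, and 585 counts in WT EBs and 218, 204, and 234 counts in Tnfaip2-/- EBs. Igf2 fell from 25.1 ± 0.877 to 9.82 ± 0.649 CPM (means with SD of 3 samples), which on the log2 scale was -1.35 (standard error 0.0677, edgeR adjusted p = 1.71e-22).

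The ratio of Igf2 to H19 in CPM was 42.4, 24.3, and 45.0 in WT EBs and 3.76, 2.68, and 4.5 in Tnfaip2-/- EBs. The ratio was thus lower in each Tnfaip2-/- sample, and its spread followed the few counts of H19. As 9.1% of the exon bases of H19 lie in other genes, in part on the opposite strand, its counts are uncertain to that extent. Igf2os, the antisense gene of Igf2, was not called (-0.11). Of the 10 flanking genes, 6 were higher and none was lower, and Dusp8 rose most (2.54). The median over the 1403 genes tested on chromosome 7 was 0.09. Igf2r on chromosome 17, the maternal receptor that clears IGF2, had 2815, 2797, and 2775 counts in WT EBs and 3143, 2965, and 3144 in Tnfaip2-/- EBs. It was higher in each Tnfaip2-/- sample, from 122 ± 3.74 to 138 ± 3.20 CPM (0.18), whereas 7 of its 10 flanking genes were lower and none was higher. The median over the 791 genes tested on chromosome 17 was -0.25. Airn, the paternal noncoding RNA that silences Igf2r in cis in other tissues, had 1, 0, and 0 counts in WT EBs and 2, 0, and 0 in Tnfaip2-/- EBs.

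In the Kcnq1 locus further along chromosome 7, maternal genes divided into 2 that rose and 2 that fell. Ascl2, a basic helix-loop-helix factor of trophoblast and stem cells, had 35, 36, and 42 counts in WT EBs and 116, 106, and 100 counts in Tnfaip2-/- EBs. It rose from 1.65 ± 0.126 to 4.82 ± 0.299 CPM (means with SD of 3 samples), which on the log2 scale was 1.54 (edgeR adjusted p = 9.45e-13). Summed counts gave a ratio of 2.92, with an exact 95% interval from 2.35 to 3.66 (counting error only). Slc22a18, a membrane transporter gene, had 17, 26, and 20 counts in WT EBs and 40, 50, and 35 counts in Tnfaip2-/- EBs. It rose from 0.921 ± 0.214 to 1.87 ± 0.366 CPM (means with SD of 3 samples), which on the log2 scale was 1.02 (standard error 0.224, edgeR adjusted p = 9.11e-05). In both genes the groups did not overlap.

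Cdkn1c, a cell cycle inhibitor, and Phlda2, a restrainer of placental growth, fell by less. Cdkn1c went from 11.1 ± 0.813 to 8.48 ± 1.19 CPM (-0.39), with 30.7% of its exon bases shared with Gm44732 on the opposite strand. Phlda2 went from 13 ± 0.555 to 10.9 ± 1.41 CPM (-0.26), and was no longer called without Tnfaip2-/- replicate 1 (-0.16). Tssc4, the most abundant of the listed genes of the locus by CPM, had 717, 690, and 695 counts in WT EBs and 685, 734, and 743 in Tnfaip2-/- EBs. The groups overlapped and Tssc4 was not called (0.08), although it was without Tnfaip2-/- replicate 1 (0.13), and it shares 11.9% of its exon bases with Trpm5 on the opposite strand. Kcnq1ot1, the paternal noncoding RNA that silences the locus in cis, had 33, 36, and 43 counts in WT EBs and 50, 36, and 42 in Tnfaip2-/- EBs and was not called (0.23). Its value went from 0.11 without Tnfaip2-/- replicate 1 to 0.33 without Tnfaip2-/- replicate 2, also without a call. Kcnq1, a potassium channel gene, was below the filter, with 0, 2, and 1 counts in WT EBs and 3, 6, and 3 in Tnfaip2-/- EBs. Cd81, which lies inside the locus, was higher (0.67).

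The Snrpn locus, the mouse counterpart of the Prader-Willi and Angelman region, also held changes in both directions among paternal genes that are close neighbours. Magel2, which encodes a regulator of a ubiquitin ligase in endosomal recycling, had 287, 271, and 262 counts in WT EBs and 71, 81, and 69 counts in Tnfaip2-/- EBs. It fell from 12 ± 0.764 to 3.31 ± 0.335 CPM (means with SD of 3 samples), which on the log2 scale was -1.85 (edgeR adjusted p = 1.05e-20). Summed counts gave a ratio of 0.277, with an exact 95% interval from 0.237 to 0.321 (counting error only). Ndn, a related gene that restrains growth of neurons, rose from 23.6 ± 0.280 to 36.1 ± 2.21 CPM (0.62). Mkrn3, a ring-finger gene on the other side of Magel2, rose from 6.19 ± 0.633 to 9.72 ± 0.233 CPM (0.65). None of these 3 genes shares exon bases with another gene, and in each the groups did not overlap.

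Snrpn, which encodes a splicing protein, was the most abundant of the listed genes of this locus by CPM and had 2280, 2083, and 2265 counts in WT EBs and 1786, 1782, and 1775 in Tnfaip2-/- EBs. It fell from 96.7 ± 3.80 to 80.0 ± 1.38 CPM (-0.27). As 34.1% of its exon bases lie in other genes, mainly Gm38393 and Snurf on the same strand, the division of reads between them is uncertain. Gm38393 was lower as well (-0.35). Ube3a, the maternal ubiquitin ligase gene of neurons, was not called (0.03), and its sign turned without WT replicate 1 (-0.03) or Tnfaip2-/- replicate 1 (-0.01). Its antisense partner Snhg14, which overlaps it without strand to tell them apart, was slightly higher (0.17).

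Loci with a single tested gene or with a gene inside the intron of another completed the picture. Grb10, an adaptor that restrains insulin and growth factor signalling, was the most abundant of the 40 tested genes per exon length in WT EBs, at 54.8 RPKM. It had 11207, 11211, and 11756 counts in WT EBs and 6780, 6346, and 6424 in Tnfaip2-/- EBs, without overlap. The mean fell from 499 ± 3.48 to 293 ± 5.02 CPM (-0.77). Zdbf2, a paternal gene of fetal growth, fell from 120 ± 5.95 to 76.0 ± 4.24 CPM (-0.66). Gnas, which encodes a G protein subunit and several transcripts of opposite imprinting, fell from 4.29 ± 0.401 to 2.96 ± 0.519 CPM (-0.54). Its value is uncertain, since 22% of its exon bases overlap Gm20721 and Nespas on the opposite strand, and Nespas rose (0.98). Reads in these bases may not have been counted, so the level of Gnas may be too low in both genotypes. Impact, a paternal translational regulator, was not called (0.05) and was at 166 ± 2.02 and 172 ± 4.06 CPM. It was called with upper-quartile scaling (0.08), with total counts only (0.08), and without Tnfaip2-/- replicate 2 (0.07). Inpp5f, a phosphatase gene with an imprinted isoform, was not called either (0.06), although its groups did not overlap.

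Several paternally expressed genes, some of them retrogenes, lie within introns of host genes, and gene and host did not always move together. Nnat, a paternal proteolipid gene of neural tissue inside Blcap, had 937, 916, and 962 counts in WT EBs and 570, 542, and 552 in Tnfaip2-/- EBs. Nnat fell from 41.1 ± 0.242 to 24.9 ± 0.170 CPM (-0.72), and Blcap rose from 20.0 ± 1.2 to 24.4 ± 0.226 CPM (0.29). Mcts2 rose (0.44) while its host H13 fell (-0.32). Nap1l5 rose (0.52) along with its host Herc3 (0.31), but Nap1l5 was not called without WT replicate 3 (0.32). Mcts2 resembles its parent gene Mcts1, and Zrsr1 resembles Zrsr2, so that uniquely mapped reads may miss part of their RNA. Trappc9, a trafficking gene that hosts Peg13, had 444, 464, and 476 counts in WT EBs and 592, 546, and 528 in Tnfaip2-/- EBs and was higher (0.30). Peg13 had 1 count in all samples together.

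Calls in the Peg3 and Zrsr1 loci depended on the test. The median log2 fold change was 0.09 over the 1403 genes tested on chromosome 7, which holds the Peg3 locus. Over the 1385 genes tested on chromosome 11, which holds the Zrsr1 locus, it was 0.12. Peg3, a paternal zinc-finger gene, had 1447, 1561, and 1536 counts in WT EBs and 1664, 1484, and 1590 in Tnfaip2-/- EBs. It was called higher (0.10) although the groups overlapped, and was not called without WT replicate 1 (0.06), WT replicate 3 (0.08), Tnfaip2-/- replicate 1 (0.07), or Tnfaip2-/- replicate 3 (0.08). Zim1, its maternal zinc-finger neighbour, rose from 1.65 ± 0.0847 to 2.21 ± 0.493 CPM (0.43). The call for Zim1 was lost without WT replicate 1 (0.41), 2 (0.46), or 3 (0.38) and without Tnfaip2-/- replicate 1 (0.46) or 3 (0.23). Usp29, a paternal gene of the same locus that shares 14.8% of its exon bases with Zim3 on the opposite strand and Gm27675, was not called (-0.25). Its value went from -0.12 without Tnfaip2-/- replicate 2 to -0.38 without Tnfaip2-/- replicate 1, also without a call.

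Zrsr1, a splicing factor retrogene within Commd1, rose from 5.40 ± 0.489 to 6.39 ± 0.163 CPM (0.24), and was not called without WT replicate 3 (0.16), Tnfaip2-/- replicate 2 (0.23), or Tnfaip2-/- replicate 3 (0.22). Commd1, which encodes a copper metabolism protein, had 334, 334, and 371 counts in WT EBs and 384, 373, and 386 in Tnfaip2-/- EBs. Zrsr1 and Commd1 share exon bases on opposite strands (9.2% and up to 11.9% of each), so their values are uncertain without strand. Commd1 was higher (0.17), but not called without WT replicate 1 (0.15), WT replicate 2 (0.16), or Tnfaip2-/- replicate 3 (0.15). Peg3, Zim1, Zrsr1, and Commd1 also lost their calls with DESeq2 and at an adjusted p of 0.01. Except for Commd1, they lost them as well when every gene with at least 1 count was tested.

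Plagl1, Dcn, and Rasgrf1, each the single listed gene of its locus, were below the filter. Plagl1, a zinc-finger regulator of growth, had 0, 4, and 1 counts in WT EBs and 1, 0, and 1 in Tnfaip2-/- EBs. Dcn, a matrix proteoglycan gene, had 8, 8, and 9 counts in WT EBs and 1, 0, and 0 in Tnfaip2-/- EBs, a summed ratio of 0.0410 with an exact 95% interval from 0.001 to 0.251. Rasgrf1, a Ras exchange factor gene, had 1, 1, and 0 counts in WT EBs and 4, 2, and 7 in Tnfaip2-/- EBs, a ratio of 6.67 with an interval from 1.51 to 60.9. These intervals cover counting error only. When every gene with at least 1 count was tested, Dcn was called lower (-4.19) and Rasgrf1 higher (2.51), and Plagl1 was not called.

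By locus, 9 of the 21 had at least 2 tested genes. In 3 of them, Mest, Peg10, and Dlk1-Dio3, each gene called was lower, and in 2, Peg3 and Zrsr1, each gene called was higher. The 4 calls of these last 2 loci were lost with DESeq2 and at an adjusted p of 0.01. In the other 4, H19-Igf2, Kcnq1, Snrpn, and Nnat, genes were called in both directions. Of 10 flanking genes each, 5 were higher and none lower at Peg3, 6 and 1 at Zrsr1, and 5 and none at Kcnq1. Lsp1, Mrpl23, Gm7290, Cars, Tnfrsf22, and Tnfrsf23 flank both Kcnq1 and H19-Igf2, so the counts of these loci largely share genes. The Kcnq1 flanks also include Igf2os and Gm33148 from inside the H19-Igf2 locus, and the H19-Igf2 flanks include R74862 from inside the Kcnq1 locus. At Snrpn, 2 flanking genes were higher and 3 lower, and at Nnat 2 and 4. Of the 201 genes that flank the loci, 68 were higher, 61 lower, and 72 not called (64.2% called, beside 67.7% of all genes tested), with a median log2 fold change of 0.04. The largest rises among them were Dusp8, Cox4i2, and Mageb16-ps2 (2.54, 1.90, and 1.86), and the largest falls were Dusp6, Gm19605, and Slc25a29 (-2.02, -1.77, and -1.62).

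A separate list of 32 further imprinted genes, of which 22 were tested, held 14 that were higher (63.6%, beside 34.0% of all genes tested) and 6 that were lower (27.3%, beside 33.7%), with a median log2 fold change of 0.45. Changes of 2-fold or more were found in 3 of these 22, all of them higher, beside 12% of all genes tested. Casd1, Pon2, Pon3, Cd81, Nespas, H13, and Herc3, named above, are on this list. Zfp264, a zinc-finger gene of the Peg3 region, rose from 5.21 ± 0.136 to 14.5 ± 0.723 CPM (1.47). Peg12 of the Snrpn region rose from 3.65 ± 0.196 to 9.39 ± 0.396 CPM (1.36), and Smoc1, a matrix protein gene, from 5.90 ± 0.385 to 11.9 ± 0.858 CPM (1.01). The largest falls were those of Begain, beside the Dlk1-Dio3 locus, of the signalling adaptor Gab1, and of Ddc within the Grb10 region (-0.97, -0.74, and -0.41).

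Factors that write, protect, or remove imprints changed in both directions as well. Of 20 such genes tested, 6 were higher (30.0%, beside 34.0% of all genes tested) and 11 lower (55.0%, beside 33.7%), with a median log2 fold change of -0.08. The de novo DNA methyltransferase genes Dnmt3a and Dnmt3b fell from 641 ± 11.2 to 147 ± 4.6 CPM (-2.12) and from 598 ± 2.1 to 173 ± 4.58 CPM (-1.79). Zfp57, whose product binds methylated imprinting control regions, fell from 265 ± 1.55 to 111 ± 0.671 CPM (-1.26). Dppa3, which protects methylation in the early embryo, rose from 4.52 ± 0.206 to 28.8 ± 0.992 CPM (2.67). Ctcfl, a germline relative of the insulator protein CTCF, and Kdm1b, a histone demethylase needed for oocyte imprints, rose by less (1.13 and 0.77). Whether these factors had a part in the imprinted gene results was not tested.

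**Figure D5:**
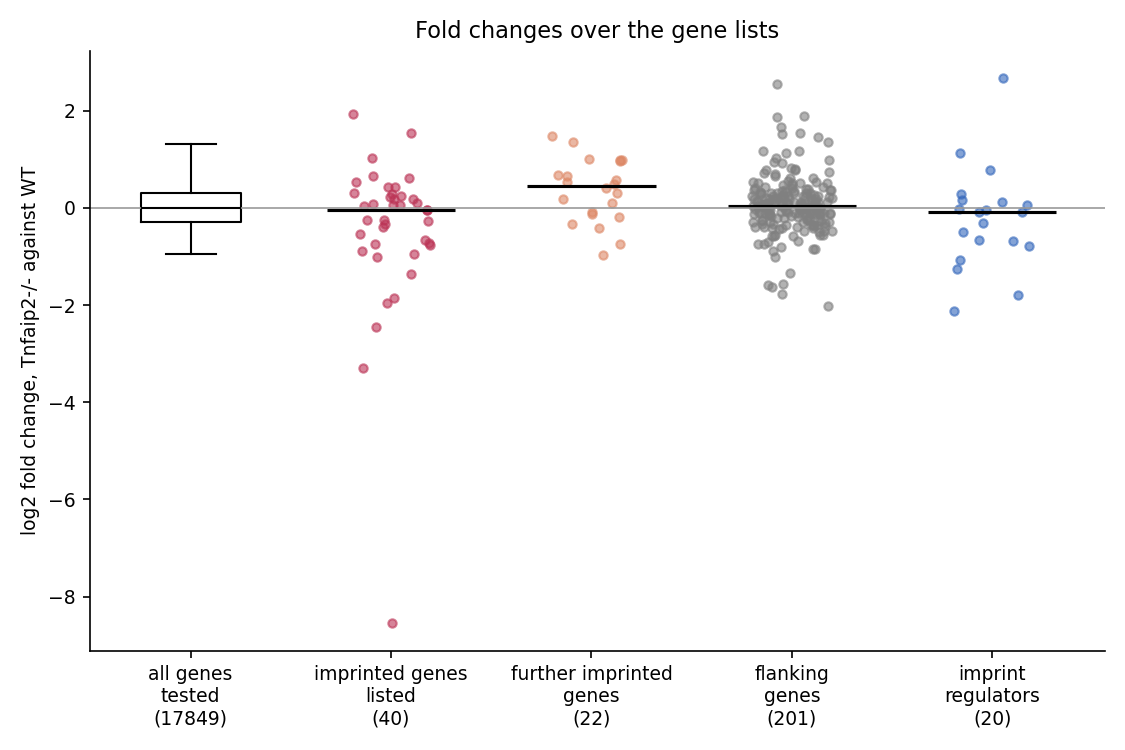
The log2 fold change (y axis, Tnfaip2-/- against WT) is shown for all genes tested (box from the lower to the upper quartile, whiskers at the 5th and 95th percentiles) and as single points, with a bar at the median, for 40 imprinted genes, 22 further imprinted genes, 201 flanking genes, and 20 imprint regulators. The medians are -0.04, 0.45, 0.04, and -0.08, respectively.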

How the data were processed

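The authors quality-trimmed the EB reads, mapped them to GRCm38 with TopHat2 2.1.0 and the Ensembl annotation, counted uniquely mapped reads per gene with featureCounts 1.5.0, and deposited these counts without normalization. The strand setting is not given in the sources used here. From the deposited counts, genes were kept by edgeR's expression filter (minimum count 10, minimum total 15), scaled by TMM (factors 0.9868 to 1.012), and compared with edgeR 4.0.16 (quasi-likelihood test, R 4.3.3) over all 17849 genes kept, where adjusted p (Benjamini-Hochberg) below 0.05 made a call. Standard errors were derived from the test statistic and can be too small where a group has few counts. For Mest, Peg10, Asb4, Dlk1, Magel2, H19, and Ascl2 the exact interval of the summed counts is given in their place. RPKM used exon lengths of GENCODE M21, which also gave positions. The imprinted genes and the other lists were chosen with earlier results of these data known. Per-sample values were given for genes called with at least a 2-fold change and for the gene of highest CPM in each locus of several genes. They were also given for genes below the filter and for some others, among them Copg2, Kcnq1ot1, and Grb10. Of each other list, the 3 largest rises and falls were named. Genes inside loci were named after their values were seen. Alternatives covered scaling, filter, test, threshold, replicate number, and each sample left out.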

Additional observations from a re-analysis of the deposited data

How the results depend on the processing

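Of 636 values for the 40 imprinted genes under other settings, 584 kept direction and call, 45 lost the call, 5 gained it, and 2 reversed, both for Ube3a, which was not called (from -0.028 without WT replicate 1 and -0.0059 without Tnfaip2-/- replicate 1 to 0.063 without WT replicate 2). Against a fold change of 1.5, 2798 genes passed in all, and 3 imprinted genes were higher and 13 lower, since that test demands a larger change. With a minimum count of 50, which removes low genes, the median over imprinted genes was -0.15. Over genes with no shared exon base, a choice made after seeing the data, 7 were lower and the median reversed to 0.14; the cause was not tested. With single samples left out, imprinted genes called higher numbered 10 to 14 and lower 17 to 19, the median was -0.07 to -0.03, and all genes called were 11537 to 11744. With the replicate block, 11841 genes were called in all, with 14 imprinted genes higher, 18 lower, and a median of -0.04. Same-numbered samples correlated at -0.02, -0.03, and -0.03, so no pairing by number was seen. Replicates of a genotype differed little beyond counting error, so a shared batch could have gone unseen. The filter left 8 imprinted genes untested. With every gene of at least 1 count tested, 12 imprinted genes were higher and 19 lower, among them Rasgrf1 and Dcn, respectively. Peg3, Zim1, and Zrsr1 were no longer called under that setting.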
